A study of Homo sapiens with 4 samples.

Results

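The aminoacyl-tRNA synthetases were examined here, the enzymes that join each amino acid to its transfer RNA, as they were expressed in cisplatin-resistant and parental head and neck squamous cell carcinoma (HNSCC) cells. The members were chosen by name as 36 genes, of which 20 encode cytosolic and 16 mitochondrial synthetases. All 36 were on the array, among 43305 gene names in all. The rule used names and no measured value, although it was set with earlier results of these data known. The study asked which genes differed once HNSCC cells had become resistant to cisplatin, a platinum drug that crosslinks DNA. The established human HNSCC lines HN4 and HN30 were grown in DMEM with 10% FBS. Each was compared with a resistant derivative, called HN4/DDP and HN30/DDP here and HN4_CR and HN30_CR in the sample labels, which had been selected by raising the cisplatin dose step by step. The resistant cells were kept in 20 μM cisplatin for 48 h, and the labels name no drug for the parental cells, so resistance and the presence of the drug cannot be told apart. One array was run for each of the 4 conditions, and there were no replicates. A difference between 2 arrays therefore has no biological error, and the only error given is the scanner's own, which was close to 0.204 on the log2 scale for most differences and ranged from 0.0645 to 0.205 over the members other than MARS2.

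Each synthetase recognises 1 amino acid and the transfer RNAs that carry it, and the charged transfer RNA is what the ribosome reads. Most cells hold separate cytosolic and mitochondrial enzymes, all encoded in the nucleus. In the cytosol several synthetases sit in the multisynthetase complex on scaffold proteins while the others act free. When amino acids run short or the endoplasmic reticulum is stressed, the integrated stress response raises translation of the transcription factor ATF4, which acts on many cytosolic synthetase genes through a C/EBP-ATF response element (CARE) in their promoters. Mitochondrial synthetases are not generally counted among its targets.

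The CARE sequences are shown first because the motif was commoner among the cytosolic promoters found than among the mitochondrial ones, though most cytosolic promoters lacked it and no test was run. RefSeq promoter windows on GRCh38.p14, which reach from 250 bases before to 50 bases after a transcript start, were found for 30 of the 36 genes, namely 16 cytosolic and 14 mitochondrial ones. The letters TGATGNAA, searched on both strands, were found in 7 of the 16 cytosolic promoters (43.75%), in 1 of the 14 mitochondrial promoters (7.14%) and in 1217 of all 27305 genes with a promoter window (4.46%). In the lines below each 30-base stretch is written on the strand that reads TGATG, and the capitals mark the motif.
CARS: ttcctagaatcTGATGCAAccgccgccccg
AARS: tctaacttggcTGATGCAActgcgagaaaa
GARS: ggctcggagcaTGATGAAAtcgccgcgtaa
TARS: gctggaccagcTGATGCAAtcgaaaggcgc
NARS: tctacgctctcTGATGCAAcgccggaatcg
IARS: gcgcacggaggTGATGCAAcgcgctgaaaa
MARS: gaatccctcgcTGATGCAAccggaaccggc
YARS2: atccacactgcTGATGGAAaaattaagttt
These stretches lie at chr11:3057407-3057436 for CARS, chr16:70289675-70289704 for AARS, chr7:30594834-30594863 for GARS, chr5:33440956-33440985 for TARS, chr18:57621804-57621833 for NARS, chr9:92293692-92293721 for IARS, chr12:57488053-57488082 for MARS and chr12:32756076-32756105 for YARS2. The core TGATGCAA was shared by CARS, AARS, TARS, NARS, IARS and MARS, and GARS and YARS2 carried another letter at the free position. In 5 of the 8 genes the motif lay within 15 bases of the annotated start, in GARS it began 33 bases before it, and in AARS and YARS2 it began 187 and 197 bases before it. A match of letters is a description and not a measured binding site.

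CARS and GARS, which code for the cysteinyl and glycyl enzymes, are shown at greater length because both hold the motif and their signals lay on opposite sides of the parental lines in both resistant lines. Each stretch runs 5′ to 3′ on the gene's own strand from 150 bases before to 20 bases after the start, with the motif in capitals, at chr11:3057404-3057573 on the minus strand for CARS and chr7:30594728-30594897 on the plus strand for GARS.
CARS: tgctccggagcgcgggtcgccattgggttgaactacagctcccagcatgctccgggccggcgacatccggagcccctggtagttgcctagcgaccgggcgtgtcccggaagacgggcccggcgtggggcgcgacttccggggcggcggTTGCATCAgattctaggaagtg
GARS: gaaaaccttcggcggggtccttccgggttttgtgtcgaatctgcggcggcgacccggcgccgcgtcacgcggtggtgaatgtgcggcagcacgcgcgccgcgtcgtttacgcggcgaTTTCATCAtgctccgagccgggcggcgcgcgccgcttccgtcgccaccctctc
On the log2 scale CARS was above its parental level by 1.20 in HN4/DDP and in the HN30 derivative by 0.60. GARS lay below its parental level, with differences of -0.80 and -0.85. Of all 7 cytosolic genes with the motif, 5 lay below 0 and 2 above it in each line.

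The other motifs were counted in the same windows on both strands. TGACG, the short form of the cAMP response element, which CREB and ATF family factors can bind, was in 7 of 16 cytosolic and 5 of 14 mitochondrial promoters, against 28.4% of all genes. CCGGAAG, the core bound by ETS factors, was in 9 of 16 and 7 of 14, against 12.2%. CACGTG, the E-box bound by MYC, was in 1 of 16 and 3 of 14, against 8.77%. The ETS core was thus the commonest of the 4 motifs in both compartments, and the absence of a match says only that these letters are not in this window.

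The unit used below is the log2 signal, the log2 of the background-subtracted brightness of a gene's probe minus the 75th percentile of that array. A level of 0 is thus the 75th percentile of the array, and levels of different genes are not compared because each probe has its own brightness. Where 4 levels are listed for a gene, those of HN4 and its derivative HN4/DDP come first and those of HN30 and its derivative HN30/DDP follow. A gene was called higher or lower in a resistant line when the difference was past 1 (2-fold) and its probe was well above background on the brighter array. The 36 members had 41 probes, and the probe with the highest mean was used for IARS, MARS and SARS, which have several. In total 35 members were well above background on all 4 arrays, and the exception was MARS2, which was not well above background in HN30/DDP. The 75th percentiles of the arrays were alike, from 444 to 496 units, and no spot was saturated. Median signals were less alike in the HN30 pair, at 25.6 units for the parental array and 37.0 for the resistant one. The HN4 pair had medians of 30.6 (parental) and 29.9 (resistant). From 55.3% (HN30) to 63.6% (HN30/DDP) of spots were well above background. All 9 squamous markers, among them KRT5, TP63 and CDH1, were well above background except KRT6A in HN30/DDP, whereas only 2 of 6 fibroblast markers and 3 or 4 of 5 leukocyte markers were. Summed linear signals, relative to the 75th percentile, were 155 to 262 for the squamous list, 0.223 to 1.03 for the fibroblast list and 3.74 to 40.0 for the leukocyte list, the last at its highest in HN30/DDP through CD14. In HN4/DDP 4 of 9 squamous, 1 of 6 fibroblast and 1 of 5 leukocyte markers were called higher and 1 squamous marker, the basal keratin KRT5 (-4.05), was called lower. In HN30/DDP 1, 1 and 3 markers of these lists were called higher and 2 squamous markers were called lower, and COL1A1, a fibrillar collagen chain, was the fibroblast marker called in both lines (1.73 and 2.43). Over all genes tested, 9.31% were called higher and 8.65% lower in HN4/DDP, and 19.8% and 13.3% in HN30/DDP. Genes tested are those well above background on at least 1 array of a pair. The part of the marker lists in the results was not tested. Because these are bulk RNAs, fewer cells of a kind and less RNA per cell cannot be told apart.

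In HN30/DDP, most synthetase signals lay below those of HN30. Of the 36 members, 30 lay below 0 and 11 were called lower, whereas none was called higher. The 11 were EPRS, FARSA, FARSB, HARS, KARS and RARS of the cytosol and CARS2, FARS2, LARS2, MARS2 and YARS2 of the mitochondria. Under 3 alternative scalings, which were quantile normalization, the deposited values and differences with their trend over brightness taken off, the calls of EPRS, KARS, RARS, CARS2 and LARS2 ended and the other 6 held. Over all 28330 genes tested in this pair, 47.1% lay below 0, and 13.3% were called lower and 19.8% higher, with a median difference of 0.06. Bright genes as a whole were lower on this array, however. Of 8824 bright genes, those with a RefSeq mRNA accession and a mean level above the 75th percentile, 23% were called lower and 7.84% higher, with a median of -0.38. Of these bright genes 67.6% lay below 0. This group, which was defined after seeing the data, holds 32 of the 36 members. The share of members called lower (30.6%) was thus above the share of all genes but nearer to that of bright genes, and their median difference was -0.79. Under the 3 alternative scalings 25 or 26 members lay below 0. There 16.7% of members were called lower, against 10.4 to 13.4% of all genes tested and 12.4 to 14% of bright genes. Median scaling moved the count of calls the other way, to 21 members (58.3%, against 23.9% of all genes tested and 41% of bright genes). It put 34 members below 0, with a median of -1.21.

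In HN4/DDP, the same genes showed small differences in both directions. Of the 36, 15 lay above and 21 below 0, and the median was -0.11. Only CARS was called higher, where 9.31% of the 26853 genes tested and 4.57% of bright genes were. None was called lower, where 8.65% of all genes tested and 7.03% of bright genes were. The medians over all genes tested and over bright genes were -0.08 and -0.07, and the difference between these medians and that of the synthetases was not tested.

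**Figure D1:**
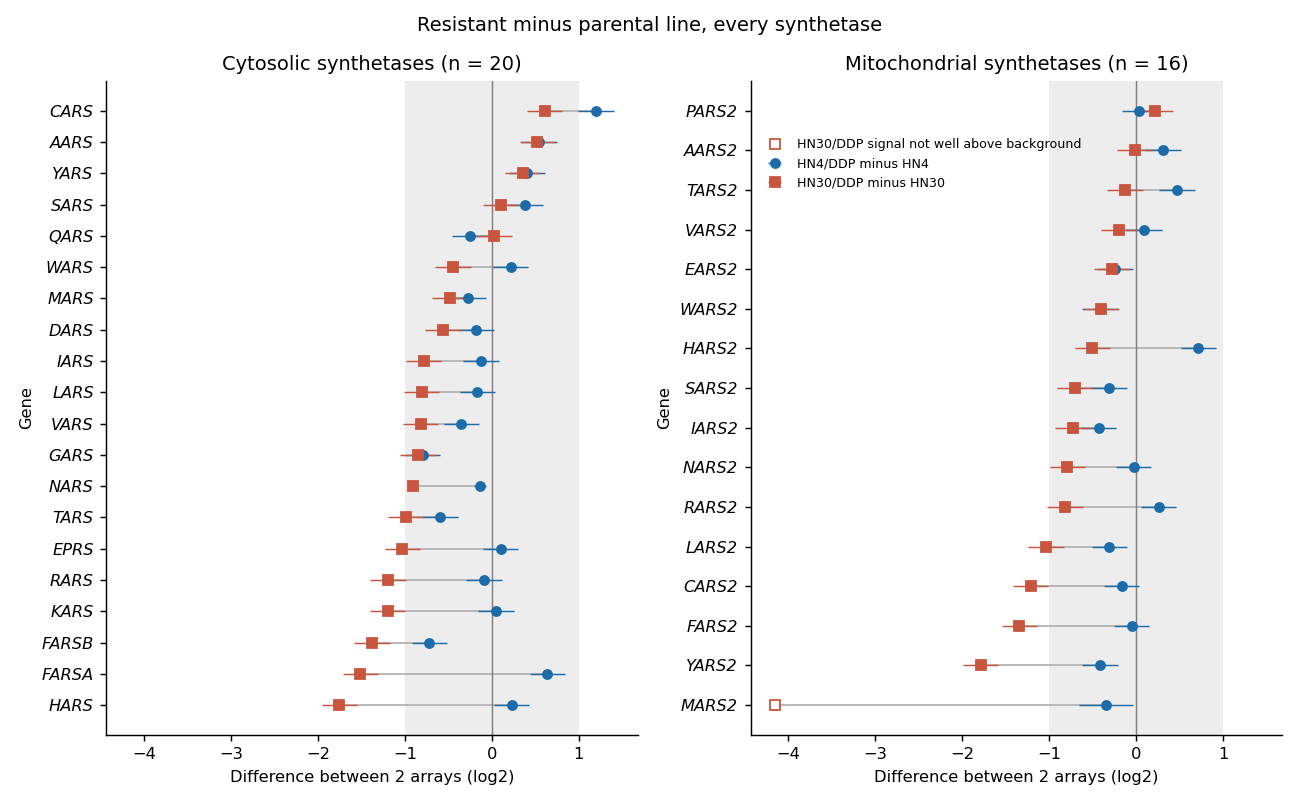
Difference between the resistant and the parental array for each of the 20 cytosolic and 16 mitochondrial synthetases (log2, x axis), in HN4 (circles) and HN30 (squares), ordered by the HN30 difference. Bars are the scanner's own error, the grey band spans -1 to 1, and the open square is MARS2, whose HN30/DDP signal was not well above background. In HN30 30 of 36 genes lie left of 0, as do 67.6% of bright genes, whereas in HN4 the synthetases lie on both sides.

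Between the lines, the difference in HN30 lay below that in HN4 for 33 of the 36 members, against 64.4% of bright genes well above background on every array. The exceptions were QARS, PARS2 and WARS2, and the count depended on the scaling. With the brightness trend taken off, AARS, DARS, GARS, MARS, SARS, TARS, YARS, EARS2, IARS2 and VARS2 were exceptions as well. In deposited values the exceptions were these same genes apart from WARS2. Under median scaling QARS, PARS2 and WARS2 were no exceptions. In both lines 20 members were below 0 and 5 were above it, 10 were above 0 in HN4 and below 0 in HN30, and QARS alone was the other way round. The 5 above 0 in both were AARS, CARS, SARS and YARS of the cytosol and PARS2 of the mitochondria. Of 8824 bright genes, 3790 were below 0 in both lines and 1669 above it. A further 2177 bright genes were above 0 in HN4 and below 0 in HN30, and 1188 the other way round. No member was called the same way in both lines, where 3.9% of 29521 genes were called higher and 1.73% lower in both. Across the 36 genes the differences in the 2 lines had a Pearson r of 0.41 and a Spearman rho of 0.39, and across bright genes r was 0.31. These are descriptions across genes, which are not independent samples.

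Taking the lines as 2 pairs, a limma model of resistance that allowed each cell line its own level called none of 29521 genes at an adjusted p under 0.05 (0%), although 2537 had an unadjusted p under 0.05. Without the trend in the variance it also called 0 genes, and 2186 had such an unadjusted p. Of the members only TARS had an unadjusted p under 0.05. Its difference over the pairs was -0.79 with a standard error of 0.29, and its limma adjusted p was 0.578. The members' adjusted p values ran from 0.578 to 0.982. With this number of arrays, the spread between lines is the only error, and it limits the precision of every value here.

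**Figure D2:**
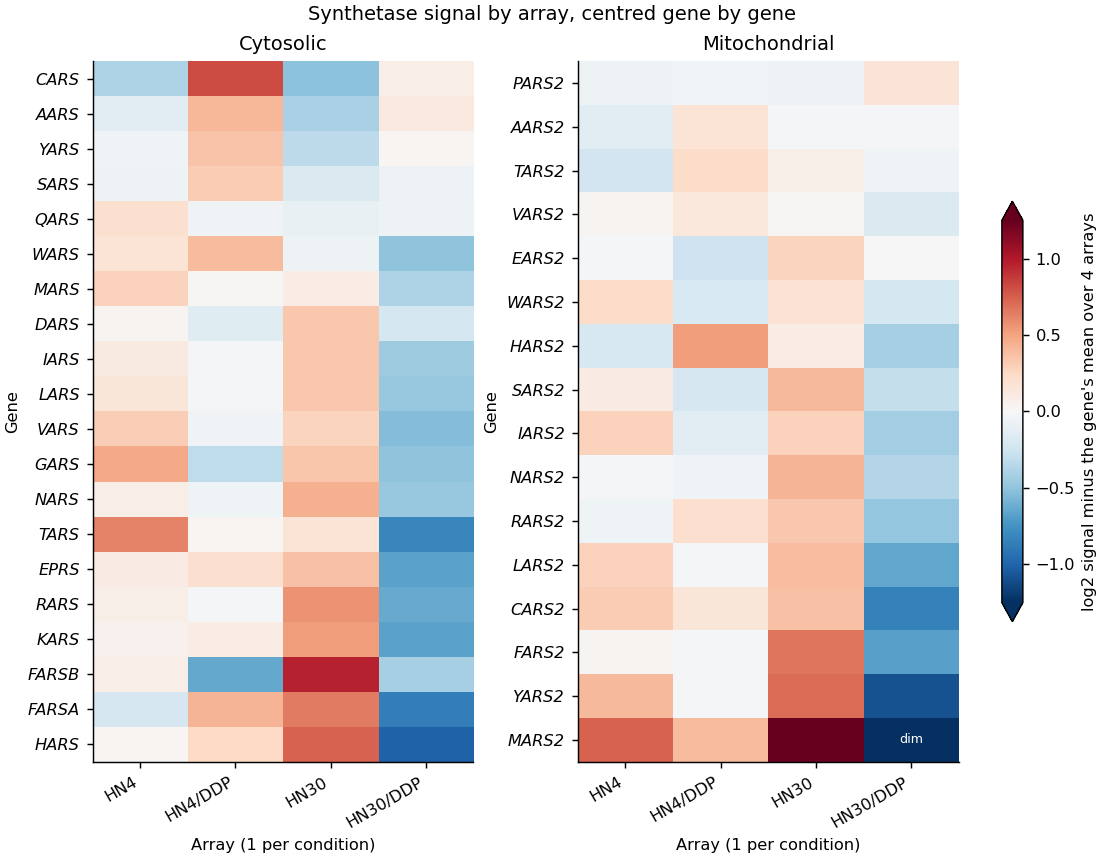
Log2 signal of each synthetase on the 4 arrays after subtracting its mean over them (colour scale, clipped at its ends), cytosolic genes left and mitochondrial genes right, ordered from the highest to the lowest HN30 difference. HN30/DDP was the lowest array for 26 of 36 genes and HN30 the highest for 19, and the dim spot is MARS2.

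By array, HN30/DDP held the lowest value of 26 members (72.2%), 14 cytosolic and 12 mitochondrial, whereas it held the lowest value of 50.3% of bright genes. HN30 held the highest value of 19 members (52.8%), against 42.8% of bright genes. In the parental lines themselves no member was called higher or lower in HN30 than in HN4, where 3.32% of genes were called higher and 7.08% lower, and the members' median was 0.20. Between the resistant lines 4 members were called lower in HN30/DDP than in HN4/DDP, namely FARSA, HARS, MARS2 and YARS2, and none higher, where 10.4% of genes were lower and 16.4% higher. These 2 comparisons share arrays with those above.

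Within the multisynthetase complex, all 8 synthetases lay close to 0 in HN4/DDP, from -0.28 for MARS to 0.10 for EPRS, with a median of -0.15. In HN30/DDP 7 of 8 were below 0, 3 were called lower (37.5%, against 13.3% of all genes tested and 23% of bright genes), and the median was -0.80. Under the 3 alternative scalings none of the 8 was called and the median lay between -0.38 and -0.33, whereas 5 were called lower under median scaling, with a median of -1.22. KARS, the lysyl enzyme, which serves both cytosol and mitochondria, had levels of 5.20, 5.24, 5.68 and 4.48. RARS, the arginyl enzyme, had levels of 5.87, 5.78, 6.36 and 5.16. EPRS, which joins the glutamyl and prolyl activities in 1 protein, had levels of 5.59, 5.69, 5.85 and 4.82. In each of the 3 the HN30/DDP array was the lowest and HN30 the highest, and the other arrays lay between, with differences of -1.20 for KARS, -1.19 for RARS and -1.03 for EPRS in HN30 and of 0.05, -0.09 and 0.10 in HN4.

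The remaining complex members were not called in either line. The differences in HN4 and HN30 were -0.17 and -0.81 for LARS, the leucyl enzyme, which also senses leucine for mTORC1. They were -0.13 and -0.78 for IARS, the isoleucyl enzyme, and -0.18 and -0.56 for DARS, the aspartyl enzyme. They were -0.28 and -0.48 for MARS, the methionyl enzyme, and -0.25 and 0.03 for QARS, the glutaminyl enzyme. QARS was thus the only member of the complex that was not below its parental level in HN30/DDP in these values, whereas 2 or 3 of the 8 lay above 0 under the 3 alternative scalings and none did under median scaling. The 3 probes of IARS ranged from -0.13 to -0.06 in HN4 and from -0.88 to -0.50 in HN30, and the 2 probes of MARS from -0.28 to -0.01 and from -0.48 to -0.17, so the probes of each gene lay on the same side of 0.

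Of the 3 scaffold genes of the complex, 1 was called lower in HN4/DDP, where 8.65% of all genes tested were, and 2 in HN30/DDP, where 13.3% were. AIMP2, which holds the complex together, had levels of 5.54, 4.25, 6.01 and 4.26, and both resistant arrays lay below both parental arrays. Its differences of -1.29 and -1.75 were past 1 in both lines. EEF1E1 (AIMP3), which links methionyl-tRNA synthetase to the complex, differed by -0.60 and -1.79 and was called lower in HN30/DDP, and AIMP1, with differences of -0.14 and -0.86, was not called in either line.

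Among the 12 free cytosolic synthetases the spread was wider. The median was 0.22 in HN4/DDP, with 7 above 0, and -0.83 in HN30/DDP, with 4 above 0. In HN30/DDP 3 were called lower (25%, against 13.3% of all genes tested and 23% of bright genes). Under the 3 alternative scalings 3 were called lower as well, where 12.4 to 14% of bright genes were. Median scaling gave 7 (58.3%, against 41% of bright genes). HARS, the histidyl enzyme, had levels of 3.88, 4.11, 4.60 and 2.84. HN30/DDP was the lowest array by more than 1, and the signal was 3.37-fold lower than in HN30, against a difference of 0.23 in HN4.

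The α and β subunits of the cytosolic phenylalanyl enzyme, which work as a heterotetramer, did not keep step in HN4. FARSA, the α subunit, had levels of 2.33, 2.97, 3.20 and 1.68, and it stood 1.55-fold above the parental level in HN4/DDP and was 2.85-fold lower in HN30/DDP. FARSB, the β subunit, had levels of 2.11, 1.40, 2.997 and 1.62, and lay below its parental level in both resistant lines, 1.64-fold and 2.60-fold. In HN30 the subunits were thus close, with differences of -1.51 and -1.38, whereas in HN4 they were 0.64 and -0.72. The mitochondrial phenylalanyl enzyme FARS2, a single chain, had levels of -0.47, -0.52, 0.17 and -1.17, with differences of -0.05 and -1.34, so all 3 phenylalanyl genes were called lower in HN30/DDP.

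CARS, the cysteinyl enzyme, was the member with the largest difference in HN4/DDP. Its levels were 0.28, 1.48, 0.14 and 0.75, and both resistant arrays lay above both parental arrays. AARS, the alanyl enzyme, had levels of 0.90, 1.44, 0.63 and 1.15, and YARS, the tyrosyl enzyme, of 0.87, 1.27, 0.59 and 0.94. Both showed the same order, HN4/DDP at the top and HN30 at the bottom, with differences of 0.54 and 0.52 for AARS and of 0.40 and 0.35 for YARS. SARS, the seryl enzyme, differed by 0.39 and 0.10 on its brightest probe. Its dimmer probes, which follow other transcripts, gave 0.59 and -0.52 for a noncoding RefSeq transcript and 0.10 and 0.62 for an Ensembl transcript, so the sign in HN30 depended on the probe.

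GARS, the glycyl enzyme, which serves both compartments, had levels of 3.76, 2.96, 3.63 and 2.78, and TARS, the threonyl enzyme, of 6.55, 5.96, 6.11 and 5.12. In both genes each resistant array lay below its parental array, with differences of -0.80 and -0.85 for GARS and of -0.60 and -0.99 for TARS. The others were NARS, the asparaginyl enzyme, at -0.14 and -0.91, VARS, the valyl enzyme, at -0.35 and -0.82, and WARS, the tryptophanyl enzyme, which interferon induces, at 0.22 and -0.45. None of these 5 was called in either line.

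Sorted by catalytic fold, the 9 cytosolic class I enzymes had medians of -0.13 (HN4/DDP) and -0.48 (HN30/DDP), and the 10 class II enzymes -0.04 and -0.95 (EPRS carries both folds). In HN30/DDP 1 of 9 (11.1%) and 4 of 10 (40%) were called lower, against 13.3% of all genes tested and 23% of bright genes, and under the 3 alternative scalings the counts were 0 and 3 and under median scaling 4 and 7. The classes were not tested against each other.

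Of the 16 mitochondrial enzymes, none was called in HN4/DDP and 5 were called lower in HN30/DDP (31.2%, against 13.3% of all genes tested and 23% of bright genes). Under the 3 alternative scalings 3 of the 5, FARS2, MARS2 and YARS2, were still called, under median scaling 9 of the 16 were, and MARS2 lost its call under the normexp correction (-0.92). Their median was -0.11 in HN4/DDP, with 6 of 16 above 0, and -0.71 in HN30/DDP, with 1 of 16 above 0. The cytosolic median minus the mitochondrial median was -0.00021 (HN4/DDP) and -0.10 (HN30/DDP). With list means in place of medians the HN30/DDP value was 0.21, but it was -0.0079 without MARS2, whose signal there was not well above background. The difference between the compartments was not tested. The lists were split by gene name, so KARS and GARS, which serve both compartments, were counted as cytosolic.

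YARS2, the tyrosyl enzyme and the mitochondrial gene with the motif printed above, had levels of 2.66, 2.25, 2.96 and 1.18. It was 3.45-fold lower in HN30/DDP than in HN30. CARS2, the cysteinyl enzyme, had levels of 5.90, 5.73, 5.94 and 4.73, and LARS2, the leucyl enzyme, of 2.03, 1.73, 2.13 and 1.09. In these 3 genes the HN30/DDP array stood apart as the lowest while the other arrays lay within 1 of each other. The differences in HN30 were -1.79, -1.21 and -1.04, and in HN4 -0.42, -0.17 and -0.31. MARS2, the methionyl enzyme, had dim levels of -3.88, -4.22 and -3.10 on the first 3 arrays and was not well above background in HN30/DDP. Its difference in HN30 was -4.15 with a scanner error of 1.46, and it was -0.92 under the normexp correction. The HN30 level lay 3.59-fold above the dimmest signal well above background on the HN30/DDP array (-4.94). That value is a rough guide and not a strict bound on the difference.

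HARS2, the histidyl enzyme, had levels of 2.54, 3.25, 2.82 and 2.32, so it stood 1.64-fold above its parental level in HN4/DDP and 1.42-fold below it in HN30/DDP, and was called in neither. TARS2, the threonyl enzyme, had levels of 1.87, 2.34, 2.18 and 2.05, and AARS2, the alanyl enzyme, of 2.32, 2.63, 2.45 and 2.43. HN4/DDP was the highest array in these 3 genes. PARS2, the prolyl enzyme, had levels of 0.48, 0.52, 0.49 and 0.71, and it was the only member with its highest value in HN30/DDP, although its difference of 0.22 in HN30 was close to the scanner error.

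IARS2, the isoleucyl enzyme, had levels of 4.91, 4.47, 4.90 and 4.18, and WARS2, the tryptophanyl enzyme, of 0.03, -0.38, -0.01 and -0.41. Both resistant arrays lay below both parental arrays in these genes, and in WARS2 the differences in the 2 lines were alike, -0.41 and -0.40. The differences in HN4 and HN30 were 0.26 and -0.82 for RARS2 (arginyl), -0.03 and -0.79 for NARS2 (asparaginyl), -0.31 and -0.70 for SARS2 (seryl), -0.24 and -0.28 for EARS2 (glutamyl) and 0.09 and -0.19 for VARS2 (valyl). None of these 5 was called.

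Enzymes for the same amino acid were set side by side across the compartments. Over 17 pairs, the cytosolic difference lay above the mitochondrial one in 11 in HN4/DDP and in 6 in HN30/DDP. The 6 were AARS, CARS, LARS, MARS, SARS and YARS with their partners, and these were above in HN4/DDP as well. The HN30/DDP count depended on the scaling. With the brightness trend taken off and in deposited values, NARS, WARS, FARSA and FARSB also lay above their partners there. The widest gap outside the dim MARS2 was that of tyrosine, where YARS minus YARS2 was 2.14 in HN30/DDP and 0.82 in HN4/DDP. For cysteine, CARS minus CARS2 was 1.82 and 1.37. Threonine went the other way, with TARS minus TARS2 at -0.86 and -1.07.

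The cytosolic genes known as ATF4 targets were then set beside the others. The 12 ATF4-responsive genes had medians of -0.01 (HN4/DDP) and -0.63 (HN30/DDP), and the 8 others -0.14 and -1.20. In HN30/DDP 1 of the 12, EPRS, was called lower, against 5 of the 8, namely FARSA, FARSB, HARS, KARS and RARS, where 13.3% of all genes tested and 23% of bright genes were. These counts were 0 of 12 and 3 of 8 under the 3 alternative scalings and 6 of 12 and 6 of 8 under median scaling. All 4 cytosolic genes above 0 in both lines, AARS, CARS, SARS and YARS, belong to the ATF4-responsive list, but SARS and YARS were below 0 in HN30/DDP under median scaling. With the printed motif as the divide, the 7 cytosolic genes with TGATGNAA had medians of -0.14 and -0.78 and none called lower in HN30/DDP, and the 9 whose promoter windows lack it had 0.10 and -1.19 with 6 called lower. Under the 3 alternative scalings 0 of the 7 and 3 of the 9 were called lower, and the HN30/DDP medians were -0.29 to -0.24 and -0.62 to -0.61. Median scaling gave 4 of 7 and 6 of 9, so the gap between these counts depended on the scaling. The difference between these lists was not tested.

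ATF4 itself and 28 other known targets were examined for comparison. ATF4 mRNA had a difference of -0.33 for HN4 and of 0.00 for HN30, and its activity is set mainly by translation, which the arrays do not read. Of the 28 targets, 5 were called higher and 5 lower in HN4/DDP, and 5 higher and 4 lower in HN30/DDP, with medians of -0.04 and 0.01. Over all genes tested, 9.31% were called higher and 8.65% lower in HN4/DDP, and the shares for HN30/DDP were 19.8% and 13.3%. In HN30/DDP the targets' shares, 17.9% higher and 14.3% lower, were thus near those of all genes. There 8 targets were called higher and 1 lower under the 3 alternative scalings, whereas 3 were higher and 6 lower under median scaling, so the balance turned with the scaling. DDIT3 (CHOP), a stress-induced transcription factor, had levels of -0.70, 1.56, -1.19 and 0.84. Its differences of 2.26 and 2.02 were past 1 in both lines, as were those of ATF3, another stress-induced factor (1.47 and 2.10), and of NUPR1, a chromatin-associated stress protein (1.55 and 5.63). CHAC1, which degrades glutathione, was past 1 only in HN4/DDP (2.32 and 0.56). SLC7A5, the large neutral amino acid transporter, was lower in both (-2.10 and -1.29). ASNS, asparagine synthetase, differed by -0.15 and 0.69, TRIB3, a pseudokinase, by 0.38 and -0.37, and SESN2, a leucine sensor, by 0.83 and 0.38.

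**Figure D3:**
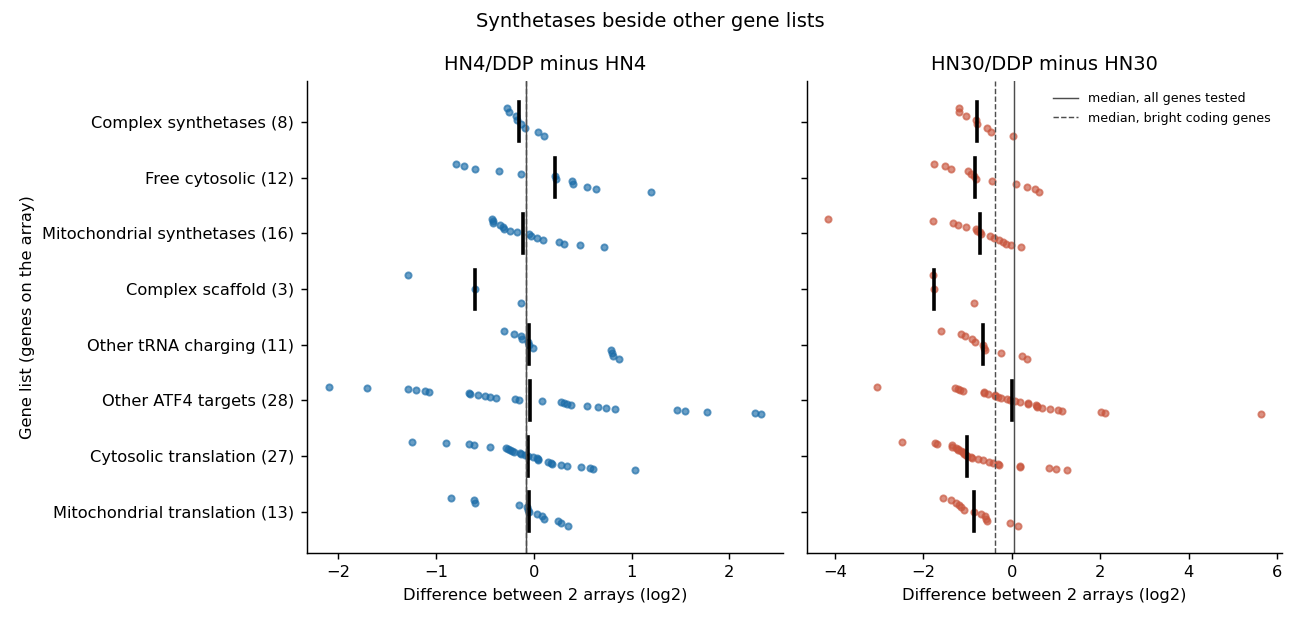
Differences (log2, x axis) of the 8 complex, 12 free cytosolic and 16 mitochondrial synthetases and of 5 other gene lists, in HN4 (left) and HN30 (right). Each point is a gene and black bars are list medians; the solid and dashed lines are the medians of all genes tested and of bright coding genes. In HN30 the medians of the synthetases and translation factors lie left of both lines, and that of the other ATF4 targets lies at 0.01.

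The wider translation apparatus was examined in the same way, against the 13.3% of all genes tested and 23% of bright genes called lower in HN30/DDP. In that line 19.8% of all genes tested and 7.84% of bright genes were called higher. In HN4/DDP 9.31% of all genes tested were called higher and 8.65% lower, and of bright genes 4.57% and 7.03%. Of 27 cytosolic translation factors, 14 were called lower (51.9%) and 2 higher, with a median of -1.01, and in HN4/DDP 1 was lower and 1 higher, with a median of -0.06. EIF2S3, the γ subunit of the factor that brings the initiator transfer RNA to the ribosome, was past 1 in both lines (1.04 and 1.26). Its HN4/DDP call ended under the normexp correction and with a pseudocount of 16, and its HN30/DDP call under median scaling. Of 13 mitochondrial translation factors, 6 were called lower in HN30/DDP (46.2%), with a median of -0.85, and none in HN4/DDP, with a median of -0.05. Of 11 other genes of transfer RNA charging, 3 were called lower in HN30/DDP (27.3%, near the share of bright genes), with a median of -0.66, and 0 in HN4/DDP, with a median of -0.05. The 3, named after their values were seen, were GATC, a subunit of the mitochondrial glutamyl-tRNA amidotransferase, at -1.60, DTD1, which clears D-amino acids from transfer RNA, at -1.14, and PTRH2, a peptidyl-tRNA hydrolase, at -1.06. The lower calls in HN30/DDP came to 3 or 4 of 27, 2 or 3 of 13 and 1 of 11 under the 3 alternative scalings, and to 18, 10 and 8 under median scaling. The synthetase median was -0.79, and the lists were not tested against each other.

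Proliferation genes moved with the same array. All 18, among them PCNA and CCNB1, were called lower in HN30/DDP, with a median of -2.07, where 13.3% of all genes tested were lower. In HN4/DDP 3 were called lower (MKI67, MCM4 and TYMS), with a median of -0.48, where 8.65% of all genes tested were. The counts were 17 and 2 under the 3 alternative scalings and 18 and 2 under median scaling. MYC, a growth-promoting transcription factor, differed by -0.10 and -0.67. The part of proliferation in the synthetase differences was not tested.

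**Figure D4:**
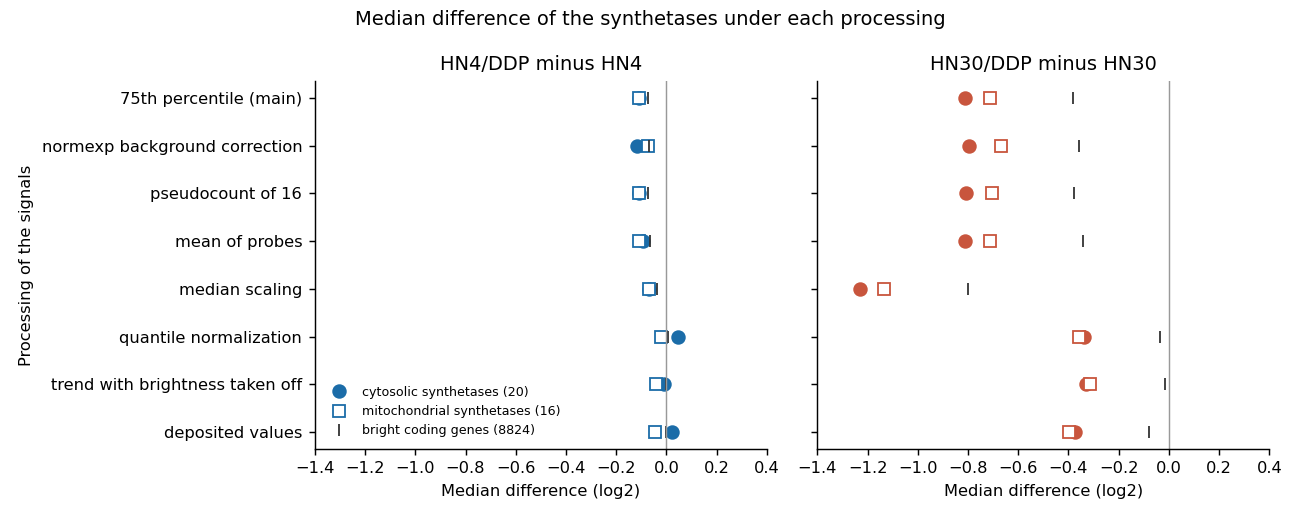
Median difference (log2, x axis) of the cytosolic (filled circles) and mitochondrial (open squares) synthetases and of 8824 bright coding genes (ticks) under 8 ways of processing the signals (rows), in HN4 (left) and HN30 (right). In HN30 the medians move with the scaling, from -1.23 to -0.33 for the cytosolic list, and stay left of the bright genes.

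The size of the HN30/DDP difference depended on the scaling. When the trend of differences with brightness was taken off, the median over all 36 was -0.32, 25 members were below 0 and 11 above, and 6 were called lower (16.7%, against 10.4% of all genes tested and 12.4% of bright genes). In quantile-normalized and in deposited values, where 13.1% and 13.4% of all genes tested were lower, the count was 6 as well, and it was the same 6 genes each time, FARSA, FARSB, HARS, FARS2, MARS2 and YARS2. FARSA, FARSB, HARS, FARS2 and YARS2 were past -1 under all 8 ways of processing, and MARS2 under all but the normexp correction, where it was -0.92. The median of the members minus that of bright genes was more stable, between -0.41 and -0.30 in HN30 and between -0.04 and 0.00 in HN4 under the 8 ways. Among the genes above 0 in both lines, AARS and CARS kept their sign under all 8, with lowest values of 0.10 and 0.19 in HN30/DDP, whereas SARS, YARS and PARS2 turned to -0.32, -0.07 and -0.20 in HN30/DDP under median scaling.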

How the data were processed

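RNA from 4 cell cultures was hybridised to 1 Agilent one-colour SurePrint G3 Human v3 array each, on 1 slide. The deposited scanner files hold spot intensity, background-subtracted by the authors with Agilent Feature Extraction 10.7.1.1 per the file headers, with other 0 or 1 marks for spots well above background that were set by the same software and deposited beside it. The deposited value table holds log2 expression made by the authors; its array differences had a Pearson r of 0.998 (HN4) and 0.948 (HN30) with those computed here, and the sources used here do not give its normalization.

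Control and outlier spots were dropped, repeated spots were averaged per probe, and log2 signals were centred on each array's 75th percentile. The probe with the highest mean stood for a gene. Probe positions were on hg19. The resistant and parental arrays were paired by cell line in limma 3.58.1 (R 4.3.3; trended variance, Benjamini-Hochberg adjustment over the 29521 genes whose probe was well above background somewhere). That fit and the counting were tested on simulated data. Alternatives were normexp correction (offset 50), median and quantile scaling, a lowess trend over brightness, a pseudocount of 16, other thresholds and other member lists, with the share of all genes called recomputed under each scaling and threshold.

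The members, gene lists and motifs were chosen with earlier results of these data known. Every member was named, and levels on all arrays were given for those past 1 in either line and for the 3 highest and 3 lowest per compartment and line. Genes of the other lists, cell type markers apart, were named where they were called in the same direction in both lines. ATF4, DDIT3, ASNS, CHAC1, TRIB3, SESN2 and MYC were named whatever their values. PCNA, CCNB1, EEF1E1, AIMP1, GATC, DTD1, PTRH2 and the markers KRT5, TP63, CDH1, KRT6A, CD14 and COL1A1 were named after their values were seen. One gene of the other lists is not reported here. Genes were looked up in the promoter set by RefSeq accession for 35 genes and by symbol for FARSB. After this look-up 6 genes had no promoter window, and a gene with several starts counted once. In the ASNS promoter, used as a check of strand, the motif was found on the gene's strand, starting 68 bases before the start.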

Additional observations from a re-analysis of the deposited data

Results flagged for a closer look

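FARSA and HARS2 lay on opposite sides of the parental level in the 2 lines, by more than 0.5 each way on the log2 scale. FARSA, the α subunit of phenylalanyl-tRNA synthetase, had differences of 0.64 (HN4/DDP) and -1.51 (HN30/DDP). HARS2, the mitochondrial histidyl enzyme, had differences of 0.71 (HN4/DDP) and -0.50 (HN30/DDP). Whether the lines differ was not tested, as there was 1 array per condition. With the trend of brightness taken off, FARSA stood at 0.70 and -1.14, and HARS2 at 0.78 and -0.12. In all, 11 of the 36 members had opposite signs in the 2 lines. Of 8824 bright genes, 2177 were above 0 in HN4 and below 0 in HN30, and 1188 the other way round.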

How the results depend on the processing

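Beyond the pairing of arrays by cell line in the limma model, no paired analysis was possible because all 4 conditions carry replicate number 1 alone. The cytosolic median in HN30/DDP was -1.23 under median scaling, -0.34 under quantile normalization, -0.33 with the brightness trend taken off and -0.37 in deposited values, and the mitochondrial median was -1.13, -0.36, -0.32 and -0.40. The count of members lower in HN30/DDP was 21, 6, 6 and 6 under these, 1 at a threshold of 2 and 23 at 0.5, which is 58.3%, 16.7%, 16.7%, 16.7%, 2.78% and 63.9% of members, against 23.9%, 13.1%, 10.4%, 13.4%, 2.75% and 26.4% of all genes tested and 41%, 13.1%, 12.4%, 14%, 3.67% and 44.7% of bright genes. In HN30/DDP 2 members were higher at a threshold of 0.5, where 19.8% of all genes tested and 7.84% of bright genes were already higher at 1. In HN4/DDP 0 were higher at a threshold of 2, against 3.61% of all genes tested and 0.805% of bright genes. At 0.5 in that line 4 were higher and 3 lower. The shares there were 18.9% and 22.6% of all genes tested and 14.2% and 20.2% of bright genes. The planned addition of further enzymes to the lists is not reported here. With list means in place of medians, the cytosolic minus mitochondrial value in HN30/DDP was 0.21, and -0.0079 without MARS2, a setting chosen after seeing the data. Of 109 values of medians, counts and fits under alternatives, the other 90 moved by less than the scanner error or stayed within 1.5 times the count. Of 504 values of single members under alternatives, 477 kept their sign and no called difference changed sign. The small HN4 medians changed sign under quantile normalization and in deposited values for the cytosolic list (0.05 and 0.02). Median scaling moved the median of all genes tested in HN30 from 0.06 to -0.36, and the share of calls that were higher from 59.9% to 36.3%, and normexp correction moved that share to 46.6%. The limma fit called 0 genes under each alternative. The number of arrays limits every value.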

Other observations

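Probes of 6 members reached across an intron on hg19, among them CARS (chr11:3038483-3039103), FARSA (chr19:13033650-13034973), GARS (chr7:30665891-30668190) and YARS2 (chr12:32903012-32903682), so they read spliced RNA. Those of HARS (chr5:140053737-140053796), AARS (chr16:70287876-70287935) and MARS2 (chr2:198571975-198572034) each lay in 1 unbroken stretch of 60 bases. HARS and HARS2 are neighbours on chromosome 5, and their differences were 0.23 and 0.71 in HN4/DDP and -1.75 and -0.50 in HN30/DDP.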
